A study of Mus musculus with 11 samples.

Results

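H3K4me3 peaks of cap mesenchyme were compared with those of ureteric epithelium, the 2 cell populations whose exchange of signals builds the kidney. The members were all peaks of both lists on chromosomes 1 to 19 and X, 32920 of cap mesenchyme and 23887 of ureteric epithelium, or 56807 of the 389607 peaks in the 6 peak lists of the series. A peak was shared when at least 1 bp of it lay under a peak of the other list and private otherwise. Cap mesenchyme was taken at E18.5 (E for embryonic day) by sorting RFP-positive cells of Cited1nuc-TagRFP-T mice, a line of (C57BL/6 x DBA)F1 origin kept on C57BL/6J, so that the Cited1 reporter set the gate. Ureteric epithelium was taken at E15.5 by sorting GFP-positive cells of Hoxb7myr-Venus/+ mice, of (C57BL/6J x CBA/J)F2 origin on C57BL/6J, where Hoxb7 sequences drive the reporter. Both were precipitated with the same antibody (Abcam ab8580) from unfixed chromatin cut with micrococcal nuclease. H3K27me3 lists of the same 2 populations, both lists of E14 embryonic stem cells (129/Ola, passage 15), and RNA served as further readouts. The RNA came from E11.5 wild-type C57BL/6 tissue, with metanephric mesenchyme and ureteric bud separated by hand. Each group was 1 sample, so what follows is a description with no replicate check, and the age of the embryos, the mouse line and the cell type cannot be told apart. In such bulk samples, fewer cells of a type and less of the mark per cell cannot be told apart either.

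H3K4me3 is trimethylation of lysine 4 of histone H3, a mark laid down around transcription start sites, above all at CpG-rich ones, by the SET1 and MLL methyltransferases. It spreads into broad domains at regulators that define a cell's identity, and it can coexist with H3K27me3, the mark of Polycomb repression, at developmental genes that are held inactive. Cap mesenchyme holds the Six2-positive progenitors of the nephron. Ureteric epithelium is the branching tube that forms the collecting ducts, drawn out by the ligand GDNF through its receptor Ret.

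The promoters of 7 genes show the range of sequence under the compared peaks, from 250 bases before to 50 after a start, with every CpG dinucleotide in capitals. They are RefSeq sequences of build GRCm38.p6 (mm10), each 5′ to 3′ on the strand of its gene. Six2, the factor that maintains nephron progenitors (chr17:85688205-85688504, minus strand), and Gata3, a regulator of the ureteric lineage (chr2:9878551-9878850, minus strand), were marked in both populations but over very different lengths.
Six2: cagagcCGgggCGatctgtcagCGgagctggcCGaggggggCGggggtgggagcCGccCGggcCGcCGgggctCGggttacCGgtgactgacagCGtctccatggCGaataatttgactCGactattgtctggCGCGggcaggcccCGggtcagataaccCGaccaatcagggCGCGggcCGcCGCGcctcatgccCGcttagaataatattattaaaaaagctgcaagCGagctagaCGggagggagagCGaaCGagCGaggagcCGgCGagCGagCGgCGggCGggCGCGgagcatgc
Gata3: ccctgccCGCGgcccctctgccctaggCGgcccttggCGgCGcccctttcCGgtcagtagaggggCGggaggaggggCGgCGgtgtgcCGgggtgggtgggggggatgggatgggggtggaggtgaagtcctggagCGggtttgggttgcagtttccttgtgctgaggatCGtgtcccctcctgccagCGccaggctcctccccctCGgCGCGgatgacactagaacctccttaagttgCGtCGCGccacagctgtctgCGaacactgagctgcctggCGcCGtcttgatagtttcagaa
Hoxb8, a homeobox gene of the body axis (chr11:96281655-96281954, plus strand), and Slc34a1, the phosphate transporter of the proximal tubule (chr13:55399398-55399697, plus strand), carried the mark in the cap mesenchyme list only.
Hoxb8: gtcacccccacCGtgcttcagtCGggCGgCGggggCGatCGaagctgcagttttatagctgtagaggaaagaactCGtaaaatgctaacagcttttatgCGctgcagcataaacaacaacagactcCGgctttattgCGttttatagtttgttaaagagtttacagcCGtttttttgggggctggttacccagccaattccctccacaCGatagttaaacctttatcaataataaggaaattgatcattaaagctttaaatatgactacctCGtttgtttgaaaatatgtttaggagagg
Slc34a1: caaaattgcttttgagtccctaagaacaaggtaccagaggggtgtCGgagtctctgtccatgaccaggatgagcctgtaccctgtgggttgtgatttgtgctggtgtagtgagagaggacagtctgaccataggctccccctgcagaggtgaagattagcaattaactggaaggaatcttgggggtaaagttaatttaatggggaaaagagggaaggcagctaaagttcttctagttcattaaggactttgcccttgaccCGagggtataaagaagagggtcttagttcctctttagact
Tfap2b, an AP-2 transcription factor (chr1:19211804-19212103, plus strand), Tie1, a receptor tyrosine kinase of endothelium (chr4:118489800-118490099, minus strand), and Emcn, an endothelial sialomucin (chr3:137340828-137341127, plus strand), carried it in the ureteric list only.
Tfap2b: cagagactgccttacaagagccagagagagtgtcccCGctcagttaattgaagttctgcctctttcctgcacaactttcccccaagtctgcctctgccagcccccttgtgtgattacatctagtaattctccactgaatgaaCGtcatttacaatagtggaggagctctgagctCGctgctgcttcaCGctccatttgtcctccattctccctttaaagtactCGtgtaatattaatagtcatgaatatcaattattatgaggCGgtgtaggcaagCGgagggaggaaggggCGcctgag
Tie1: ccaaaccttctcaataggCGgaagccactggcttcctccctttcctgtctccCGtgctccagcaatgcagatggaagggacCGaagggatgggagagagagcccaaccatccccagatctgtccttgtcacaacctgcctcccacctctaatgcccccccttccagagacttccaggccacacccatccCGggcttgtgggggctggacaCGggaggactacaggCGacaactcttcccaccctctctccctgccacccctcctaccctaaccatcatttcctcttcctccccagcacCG
Emcn: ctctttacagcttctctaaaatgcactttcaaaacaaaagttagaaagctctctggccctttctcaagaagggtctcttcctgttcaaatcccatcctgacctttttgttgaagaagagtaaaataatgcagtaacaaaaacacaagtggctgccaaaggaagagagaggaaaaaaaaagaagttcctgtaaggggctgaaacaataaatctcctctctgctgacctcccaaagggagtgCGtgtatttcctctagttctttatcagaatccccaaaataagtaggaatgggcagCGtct
These windows held 37 CpG at Six2, 22 at Gata3, 13 at Hoxb8, 2 at Slc34a1, 8 at Tfap2b, 7 at Tie1 and 2 at Emcn.

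The same contrast ran through all 32619 promoter sequences that could be placed, each sorted by the mark within 1 kb of its own start. Windows marked in both populations (15421) held a median of 21 CpG, against 8 where only cap mesenchyme was marked (1523), 5 where only ureteric epithelium was marked (309) and 3 where neither was (15366). The observed number of CpG relative to that expected from C and G content had medians of 0.755, 0.379, 0.265 and 0.186 in that order, and the GC content medians of 61.7%, 55.3%, 49.3% and 46.7%. Over all windows the ratio was 0.387 and the GC content 53.0%. Promoters marked in only 1 population thus held fewer CpG than those marked in both, with an observed-to-expected value of at least 0.6 at 26.4% of the cap mesenchyme-only and 3.88% of the ureteric-only windows, against 70.8% of those marked in both. Within the cap mesenchyme-only windows, those of genes that also carried H3K27me3 in either kidney population had a median of 15 CpG (554 windows) and the others a median of 6 (969). Short letter motifs were counted on either strand. GGGCGG, the core of the SP factor site, lay in 64.2% of the windows marked in both, 37.4% of the cap mesenchyme-only, 17.2% of the ureteric-only and 35.9% of all windows. For TATAAA the shares in the same order were 6.47%, 11.9%, 19.1% and 13.7%, and the Hoxb8 and Slc34a1 windows held it. CAGGAAG, a form of the ETS site, lay in 11.2%, 14.4%, 29.1% and 13.4%, and it was present in the Emcn window above. AGATAA, which zinc-finger factors of the Gata family bind, lay in 5.61%, 11.2%, 15.2% and 11.2%. GTTAAT, part of the HNF1 site, lay in 4.14%, 7.16%, 13.9% and 7.1%, and it was present in the Slc34a1 and Tfap2b windows. In windows marked in neither population the shares of these motifs, in the order above, were 7.74%, 20.9%, 15.1%, 16.7% and 9.92%. The values of 20.9% and 16.7% were above the ureteric-only shares of 19.1% and 15.2%, and the others were below. Such matches describe letters and show no binding.

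The peak lists gave positions and a score per peak but no read counts, so their depth is unknown. The lowest score kept was 50.01 in both lists, and many of the highest-scoring peaks shared a score of 3100. The median score was 449 in cap mesenchyme and 319 in ureteric epithelium, and whether a score means the same in the 2 lists is unknown, so scores were used only to rank peaks within a list. Cap mesenchyme peaks covered 55.0 Mb and ureteric peaks 42.4 Mb, of which 37.7 Mb lay under both, that is 68.5% of the cap mesenchyme bases and 88.9% of the ureteric bases. Genes were given the mark when a peak reached within 1 kb of a start, which was possible for 33378 genes. Of the genes at 10 FPKM (an RNA level scaled for transcript length and library size) or more in the dissected tissue, 98.0% of 3624 in mesenchyme and 98.0% of 5025 in ureteric bud had the mark in the corresponding sorted cells. Some genes with RNA had no peak at their placed start. Ywhaz, a 14-3-3 adaptor, was at 17.96 and 33.98 FPKM, and Ash2l, a subunit of the MLL complexes, at 50.7 and 103 FPKM, and neither had a peak at its start in either list.

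The labelled cell types were checked against genes that define them. The cap mesenchyme regulators Six2, Cited1, Osr1, Wt1, Eya1 and Uncx were marked in both lists, each over a longer stretch in cap mesenchyme. Six2 had 17904 bp of H3K4me3 in cap mesenchyme and 5016 bp in ureteric epithelium, Wt1 15487 and 4254 bp, Eya1 12975 and 2136 bp, and Osr1 8286 and 1461 bp. Of the ureteric markers, Ret (2037 and 3700 bp), Wnt11 (5765 and 6701 bp), Gata3 (2738 and 22440 bp), Cdh1 (2096 and 3319 bp) and Epcam (1875 and 3825 bp) were wider in ureteric epithelium, and Calb1, a calcium-binding protein, was marked there alone over 1557 bp. Hoxb7, whose sequences drive the sorting reporter, went the other way and had no ureteric peak at its start. Among 19 genes of blood and macrophages, 15 had no peak at the start in either list, including Ptprc, Csf1r, Spi1 and Gata1, and the other 4 were marked in both. Of all genes 47.0% had no peak in either list, and of protein-coding genes 32.5%. Endothelial genes were marked in the ureteric list, and are described below.

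The lists overlapped unevenly. Of the cap mesenchyme peaks 20304 (61.7%) were shared and 12616 private, and of the ureteric peaks 20849 (87.3%) were shared and 3038 private. Joined together, the peaks formed 35635 regions, of which 19981 (56.1%) held peaks of both lists. In 94.7% of these, 1 peak faced 1 peak. Private peaks were narrow and low in score. Their median width was 809 bp in cap mesenchyme and 567 bp in ureteric epithelium, against 1930 and 1716 bp for shared peaks. Their median score was 102.6 and 67.5, against 1605 and 416. Only 5.002% of private cap mesenchyme peaks and 3.46% of private ureteric peaks reached the median score of their own list. Only 9.23% of the private cap mesenchyme peaks and 17.7% of the private ureteric peaks lay within 2 kb of the other list, and their median distance to it was 22.8 and 14.7 kb. Ranked by score, sharing in cap mesenchyme climbed from 10.02% in the lowest decile of the list to 56.1% in the fifth and 97.6% in the seventh, and in ureteric epithelium from 48.4% in the lowest decile to 96.0% in the fifth. The top 3 deciles of both lists were shared at 99.3% or more. With the cap mesenchyme list shortened to its 23887 best-scoring peaks, to match the ureteric list, 79.5% of its peaks were shared and 82.3% of the ureteric peaks, and the percentages of the 2 lists lay far closer together than at full length. On single autosomes the shared percentage ran from 56.1 to 65.2 for cap mesenchyme and from 79.1 to 90.7 for ureteric peaks, and on the X chromosome it was 73.7 and 90.7.

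**Figure D1:**
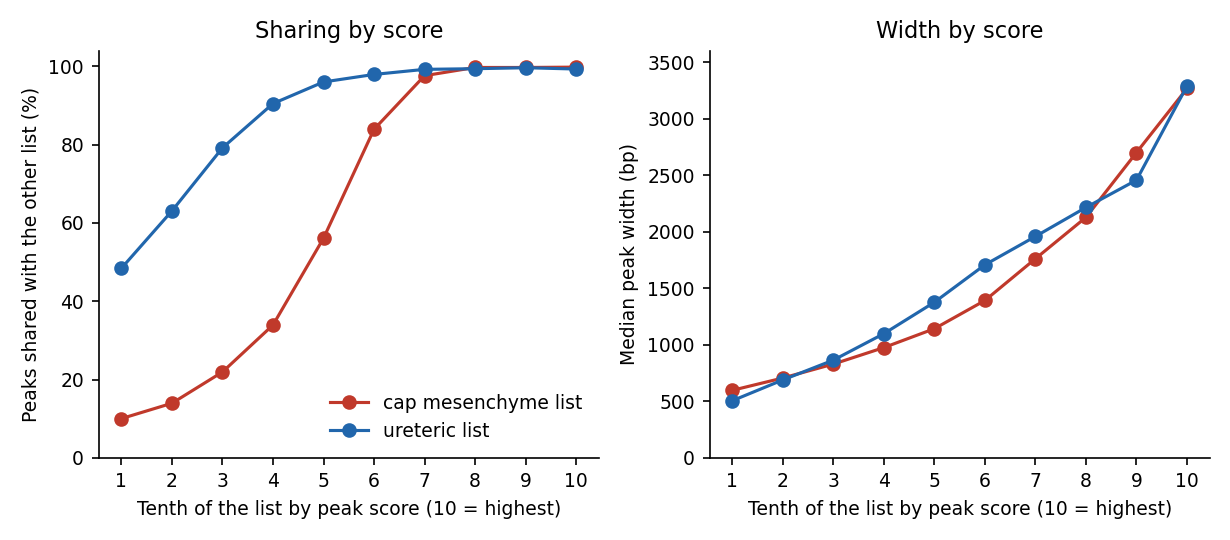
Left, the percentage of peaks shared with the other list and, right, the median peak width in bp, for each decile of a list ranked by peak score (10 is the highest), with cap mesenchyme in red and ureteric epithelium in blue. Sharing starts at 10.02% and 48.4% in the lowest deciles and is 99.3% or more in the top 3 deciles of both lists, while the median width goes from 597 to 3266.5 bp in cap mesenchyme and from 505 to 3288 bp in ureteric epithelium.

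Shared and private peaks also lay in different places. Of the shared peaks 66.6% in cap mesenchyme and 66.3% in ureteric epithelium reached a promoter, against 13.0% and 11.4% of the private ones. The private peaks lay mostly inside genes (53.5% and 57.1%) or between them (33.5% and 31.5%), at a median of 15.4 kb from a start in both lists. Embryonic stem cells had H3K4me3 at 90.3% and 90.1% of the shared peaks, at 43.2% of the private cap mesenchyme peaks and at 30.6% of the private ureteric peaks. The stem cell list was the longest of the 3 H3K4me3 lists, with 66694 peaks. The H3K27me3 lists also differed, with 105945 peaks and a lowest score of 40 in cap mesenchyme. In ureteric epithelium there were 136696 peaks, with a lowest score of 30. Private cap mesenchyme peaks at promoters (1640) had a median width of 1017 bp, and 71.6% of them were marked in stem cells. H3K27me3 of the same cap mesenchyme cells overlapped 27.01% of them and H3K27me3 of ureteric cells 29.0%. For the 10976 private cap mesenchyme peaks elsewhere the 3 values were 38.9%, 6.204% and 7.45%. Private ureteric peaks showed no such difference in favour of promoters, as H3K27me3 of ureteric cells overlapped 8.09% of the 346 at promoters and 15.3% of the 2692 elsewhere.

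Promoter by promoter, 15823 of 33378 genes (47.4%) were marked in both populations and 15700 (47.0%) in neither. Cap mesenchyme alone was marked at a further 1584 (4.75%), and the ureteric cells alone at 271 (0.812%). Of protein-coding genes 980 carried the mark in cap mesenchyme alone and 141 in ureteric cells alone, and of long noncoding RNA genes 604 and 130. The 2 groups of protein-coding promoters differed in the other marks they carried. Of the 980, 319 carried H3K27me3 in both kidney populations, 70 in ureteric epithelium only, 49 in cap mesenchyme only and 542 (55.3%) in neither, and 80.9% were marked by H3K4me3 in stem cells. Of the 141, 12 carried H3K27me3 in ureteric epithelium and 11 in cap mesenchyme, 126 (89.4%) carried it in neither, and 44.7% had H3K4me3 in stem cells. The 89.4% was close to the share at other protein-coding genes, 86.6% of those with H3K4me3 in both lists and 89.9% of those with it in neither. Stem cells had H3K4me3 at 99.0% and 14.4% of these 2 groups. At equal list length cap mesenchyme alone was marked at 3.16% of genes and the ureteric cells alone at 1.21%, so the first outnumbered the second by 2.61 to 1, against 5.85 to 1 at full length.

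Most regulators of the 2 lineages were marked in both populations and differed in the width of the mark, here the summed width of all peaks that reach a promoter. Over the 15823 genes marked in both, the median width was 2446 bp in cap mesenchyme and 2288 bp in ureteric epithelium, and the median ratio was 1.08. Most genes, 74.0%, were wider in cap mesenchyme and 25.9% in ureteric epithelium, and the counts of wider genes in each list below are to be read against these shares. The mark was at least 2-fold wider in cap mesenchyme at 286 genes (1.81%) and at least 2-fold wider in ureteric epithelium at 197 (1.25%). Broad promoters, with 8 kb or more of the mark, numbered 137 in cap mesenchyme and 124 in ureteric epithelium, and 67 were broad in both.

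The protein-coding genes with the largest excess of width in cap mesenchyme were Hox genes of clusters A, C and D together with Nr2f2, Six2 and Wt1. Nr2f2, a nuclear receptor of mesenchyme, had 29160 bp in cap mesenchyme and 4690 bp in ureteric epithelium, with RNA at 235 FPKM in mesenchyme and 20.1 FPKM in ureteric bud. The Six2 peak ran from 85679310 to 85697213 on chromosome 17 in cap mesenchyme and from 85684701 to 85689716 in ureteric epithelium, so that the narrow ureteric peak lay inside the broad one, and RNA was at 55.5 and 1.58 FPKM. Wt1, a zinc-finger factor of progenitors and podocytes, behaved alike (chromosome 2, 105120016 to 105135502 against 105125081 to 105129334; 42.1 and 0.126 FPKM). Of 30 nephron progenitor genes, 28 were marked in both lists and 2, the homeobox gene Meox1 and the imprinted gene Peg10, in cap mesenchyme only. Of the 28, 26 were wider in cap mesenchyme, 15 of them at least 2-fold, with a median ratio of 2.02 against 1.08 over all genes. Besides the regulators above these included Rspo1, a WNT agonist (7067 and 1738 bp), Itga8, the integrin that acts in GDNF expression (6608 and 1699 bp), Uncx, a homeobox factor (18491 and 8080 bp), and Cited1 itself (6741 and 3306 bp), whose RNA was lower in mesenchyme (2.78 FPKM) than in ureteric bud (8.34 FPKM). Sall1 (13764 and 13913 bp), Pax2 (20791 and 19863 bp) and Bmp7 (8314 and 8368 bp) were broad in both. Pax2 RNA was at 15.1 FPKM in mesenchyme and 41.1 in ureteric bud, and Sall1 RNA at 26.5 and 0.276 FPKM, so equal breadth went with unequal RNA there. The renal stroma list leaned the same way, with 13 of 14 genes marked in both wider in cap mesenchyme and a median ratio of 1.60. Foxd1, the defining factor of stroma, had 6464 and 2435 bp, and Tcf21 3918 and 2036 bp. Of 17 mesenchymal genes marked in both, 15 were wider in cap mesenchyme, none of them 2-fold, with a median ratio of 1.28.

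In ureteric epithelium the largest excess of a protein-coding gene lay at Gata3, whose mark ran over 22440 bp in 1 peak (chromosome 2, 9868564 to 9891003) against 2 peaks of 974 and 1764 bp in cap mesenchyme. Gata3 RNA was at 95.7 FPKM in ureteric bud and 1.51 in mesenchyme. Next came Tfap2a, an AP-2 factor (14417 bp in ureteric epithelium, 1217 bp in cap mesenchyme; 121 and 0.107 FPKM), Sim1, a bHLH-PAS factor (13894 and 1753 bp; 22.1 and 0.0059 FPKM), and Emx2, a homeobox factor needed by the ureteric bud (14540 and 2908 bp; 225 and 1.43 FPKM). The T-box genes Tbx3 (12248 and 2427 bp) and Tbx2 (13861 and 5068 bp), the homeobox genes Lhx1 (13856 and 4904 bp) and Pou3f3 (13295 and 3901 bp) and the zinc-finger gene Prdm16 (11270 and 2736 bp) were also among the 15 genes with the largest excess. So was Plxnd1, a semaphorin receptor of endothelium (12068 and 3139 bp), whose RNA was lower in ureteric bud (2.02 FPKM) than in mesenchyme (9.80 FPKM). Among Gata3, Tfap2a, Sim1, the T-box, homeobox and Prdm16 genes above, all but Emx2, Lhx1, Pou3f3, Tbx2 and Prdm16 carried H3K27me3 at the promoter in both kidney populations, and those 5 in cap mesenchyme only. Of 21 ureteric tip genes 18 were marked in both lists, and 17 of the 18 were wider in ureteric epithelium, 4 of them at least 2-fold, among them Gata3, Emx2 and Lhx1. The exception was Gfra1, the co-receptor of Ret, with 6871 bp in ureteric epithelium and 7069 bp in cap mesenchyme. Of 24 epithelial genes marked in both, 22 were wider in ureteric epithelium and 5 at least 2-fold, namely the claudins Cldn6 (6689 and 1326 bp), Cldn4 (3210 and 1152 bp) and Cldn3 (4490 and 1973 bp), Ap1m2, an adaptor of epithelial sorting (1855 and 792 bp), and Epcam. The epithelial cadherin Cdh1, with RNA at 72.2 FPKM in ureteric bud and 0.0188 in mesenchyme, still had 2096 bp of H3K4me3 in cap mesenchyme. Early nephron genes also leaned to ureteric epithelium, with 17 of 21 wider there and 6 at least 2-fold, among them the Iroquois genes Irx1 (6650 and 1472 bp), Irx2 (6597 and 1842 bp) and Irx3 (9930 and 4153 bp). Lists that act in every cell stayed near the ratio of all genes, with medians of 1.04 for 17 housekeeping genes, 1.01 for 22 cell cycle genes and 1.08 for 21 genes that write or erase H3K4 methylation. The signalling lists did so too, with 1.02 for 24 genes of GDNF, RET and FGF signalling and 1.03 for 31 genes of WNT signalling. Of 22 genes of the ureteric trunk and collecting duct 10 were marked in both, with 8 wider in ureteric epithelium, and 7 in neither. The share in neither was close to the 32.5% of all protein-coding genes. Only Tfap2b of this list was marked in ureteric epithelium alone, whereas 4 were marked in cap mesenchyme alone, namely Hoxb7 and the uroplakins Upk1a (954 bp), Upk2 (1010 bp) and Upk3a (744 bp). Over all genes the shares were 0.812% and 4.75%. The 3 uroplakin peaks were weak, with scores of 64.61, 132.45 and 70.04 against a list minimum of 50.01. Those of Upk1a and Upk3a lay below 128.63, the lowest score kept when the cap mesenchyme list was shortened to equal length. Of 15 germ cell genes 13 were marked in neither list, against 47.0% of all genes and 32.5% of protein-coding genes.

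**Figure D2:**
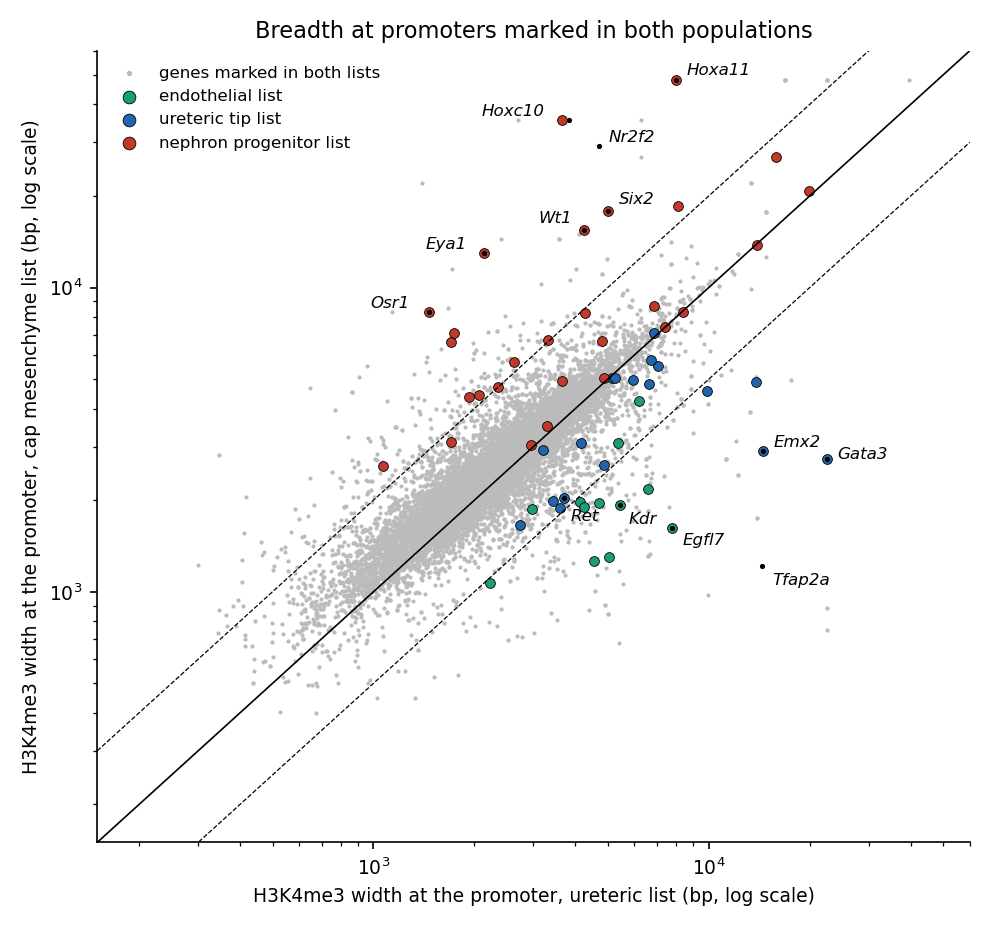
Summed H3K4me3 width at the promoter in bp, ureteric list on the x axis and cap mesenchyme list on the y axis (both log scales), for the 15823 genes marked in both lists (grey), with 3 gene lists in colour. The solid line marks equal width and the dashed lines a 2-fold difference. Six2, Wt1, Eya1 and Osr1 sit above the upper dashed line and Gata3, Emx2, Tfap2a and Egfl7 below the lower one.

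Breadth and RNA went together across genes, although the RNA came from earlier tissue. RNA differences are log2(FPKM + 1) in mesenchyme minus that in ureteric bud. Their median over the 11611 genes at 1 FPKM or more in either tissue was -0.46, so each value below is read against that. Of those genes, 1.97% were at least 4-fold higher in mesenchyme and 4.27% at least 4-fold higher in ureteric bud, with at least 2 FPKM in the higher tissue. The 147 such genes with the mark at least 2-fold wider in cap mesenchyme had a median difference of 1.10, which is 1.56 above the median of all genes. Among them 52 (35.4%) were 4-fold higher in mesenchyme and 1 was 4-fold higher in ureteric bud. The 133 genes with the mark at least 2-fold wider in ureteric epithelium had a median of -1.49, and 54 (40.6%) were 4-fold higher in ureteric bud and 3 in mesenchyme. At smaller width differences the 2 sides were unequal, but the bins were set around a ratio of 1 whereas the median ratio was 1.08. At a ratio between 0.5 and 0.8 the median was -1.13, with 27.3% of 484 genes 4-fold higher in ureteric bud and 1.65% in mesenchyme. At a ratio between 1.25 and 2 it was -0.30, close to that of all genes. There 3.74% of 1576 genes were 4-fold higher in mesenchyme and 1.08% in ureteric bud, against 1.97% and 4.27% of all genes. Between 0.8 and 1.25 the median was -0.49, with 2.74% of 8618 genes 4-fold higher in ureteric bud and 0.743% in mesenchyme. H3K27me3 was more frequent at genes that differed 2-fold in width in either direction than at genes of similar width, where cap mesenchyme carried it at 7.08% and ureteric epithelium at 9.96%. Of the genes wider in ureteric epithelium, 39.1% carried it in cap mesenchyme and 26.9% in ureteric epithelium. Of those wider in cap mesenchyme, 14.0% carried it in cap mesenchyme and 32.9% in ureteric epithelium. The ureteric H3K27me3 list was the longer, with 136696 peaks against 105945 in cap mesenchyme. Genes that share 1 broad peak, as in the Hox clusters, count several times here.

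The Hox clusters held the widest differences. Of 39 Hox genes 25 were marked in both lists, 12 in that of cap mesenchyme alone and 1 in the ureteric list alone, against 4.75% and 0.812% of all genes. The genes of a cluster share peaks, so they are not separate cases. A single cap mesenchyme peak of 48242 bp covered the starts of Hoxa3, Hoxa5, Hoxa6, Hoxa7, Hoxa9, Hoxa10 and Hoxa11. Hoxa11, a regulator of the metanephric mesenchyme, had 8001 bp in ureteric epithelium, with RNA at 11.52 FPKM in mesenchyme and 0.055 in ureteric bud. At HoxC a 35490 bp peak over Hoxc9, Hoxc10 and Hoxc11 faced ureteric widths of 6261, 3832 and 3645 bp, and Hoxc8 had no ureteric peak. RNA of Hoxc10 was at 61.1 FPKM in mesenchyme and 0.261 in ureteric bud, and of Hoxc8 at 18.4 and 0.0813 FPKM, and the Hoxc8 and Hoxc10 promoters carried H3K27me3 in the ureteric list but not in that of cap mesenchyme.

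HoxB did not follow RNA in this way. Between 96267004 and 96338177 on chromosome 11 the ureteric list held no H3K4me3 peak over 71.2 kb, a stretch of which cap mesenchyme peaks covered 91.2% and which holds the starts of 7 genes from Hoxb3 to Hoxb9. One cap mesenchyme peak of 45460 bp (96275979 to 96321438) lay over the starts of Hoxb3 to Hoxb8. RNA of all 7 genes was nonetheless higher in ureteric bud as deposited, though for Hoxb9 and Hoxb3 by no more than about the median difference of all genes (-0.45 and -0.52 against -0.46). Hoxb7 was at 75.8 FPKM in ureteric bud and 9.95 in mesenchyme, Hoxb8 at 69.2 and 7.96 FPKM, Hoxb6 at 62.0 and 32.7 FPKM, and Hoxb9 at 16.2 and 11.6 FPKM. On the log2 scale the difference was -2.81 for Hoxb7 and -2.97 for Hoxb8, far beyond that median. The ureteric list resumed on both sides of the stretch. On the Hoxb2 side it did so with a peak of 8702 bp at a score of 1858, followed by 1 of 4805 bp at the Hoxb2 start with a score of 3100. On the Hoxb13 side it held weak peaks next to the stretch and then 1 of 7325 bp with a score of 3100. Neither kidney population had H3K27me3 within the stretch. The sorted ureteric cells carry a reporter driven by Hoxb7 sequences, and the part of that transgene in the missing peaks was not tested. A smaller case of the opposite sign lay at HoxD, where Hoxd4, a further axial gene, was the only Hox gene marked in ureteric epithelium alone. It sat in a stretch of 10.3 kb without a cap mesenchyme peak (chromosome 2, 74716768 to 74727097), although mesenchyme had 24.6 FPKM of Hoxd4 and ureteric bud 33.3. The ureteric peak at the Hoxd4 start, of 20930 bp, met cap mesenchyme peaks beyond the promoter window. Its score of 259.3 was below the median of 319 of its list.

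**Figure D3:**
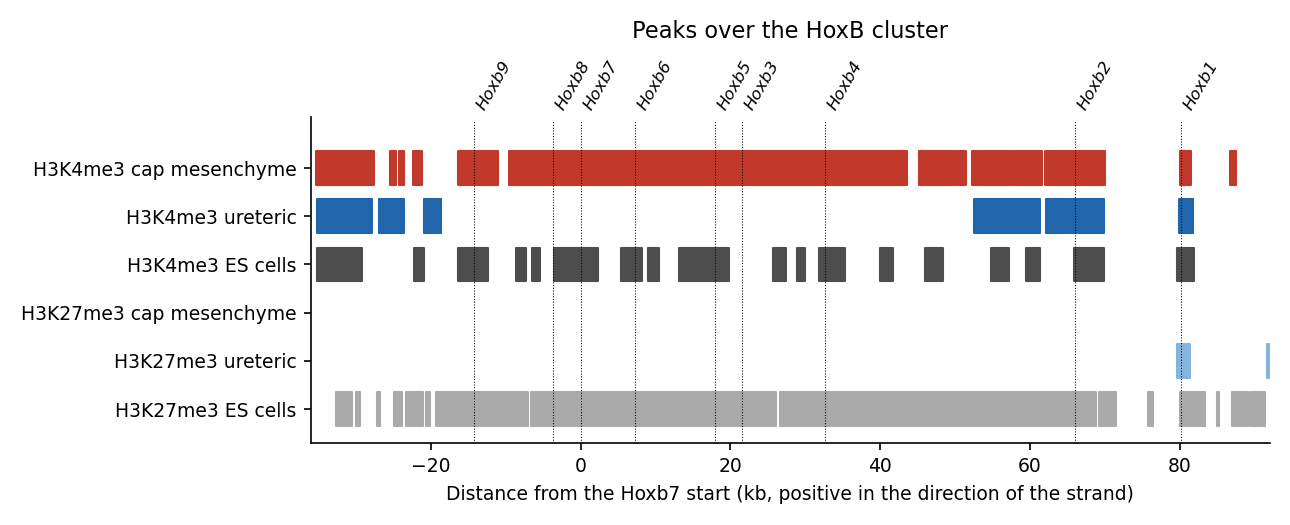
Peaks (filled bars) of the 6 lists over the HoxB cluster from Hoxb9 to Hoxb1, by distance in kb from the Hoxb7 start, with dotted lines at gene starts. The ureteric H3K4me3 row is empty over 71.2 kb around Hoxb3 to Hoxb9, where cap mesenchyme peaks cover 91.2%, and both kidney H3K27me3 rows are empty there.

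Promoters marked in cap mesenchyme only included many regulators of other tissues. Of 42 transcription factors that specify other lineages, 24 were marked in cap mesenchyme only, 6 in both, 12 in neither and none in ureteric epithelium only, against 4.75% marked in cap mesenchyme only over all genes. They included Pax3 and Pax7 of muscle and crest, Dlx5 and Dlx6 of the skeleton, En1 and En2 of the brain and T of the notochord. The mark at their promoters was narrow, with summed peak widths of 451 to 3474 bp. Of the 24 promoters 23, all but that of the muscle factor Myf5, also carried H3K27me3 in both kidney populations. RNA reached 1 FPKM in either tissue at 1 of the 24, En2, with 5.29 FPKM in ureteric bud and a listed 0 in mesenchyme. At equal list length 19 of the 24 were still marked in cap mesenchyme only, and in the upper 50% of both lists by score 7. Also marked in cap mesenchyme only, with H3K27me3 in both kidney populations, were 6 of 23 pluripotency genes (Sox2, Prdm14, Tdgf1, Lin28a, Fgf4 and Utf1) and 6 of 15 neuronal and crest genes. Of the 6 neuronal and crest genes 3 reached 1 FPKM, namely Stmn2, a tubulin regulator (3.73 FPKM in mesenchyme and 0.115 in ureteric bud), Hand2, a bHLH factor (1.83 FPKM and a listed 0), and the tubulin Tubb3 (2.22 and 5.05 FPKM). Of the pluripotency genes Lin28a, an RNA-binding protein, had RNA above 1 FPKM in both tissues (1.62 in mesenchyme and 2.24 in ureteric bud).

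Genes of the differentiated nephron formed a second set. Of 22 tubule transport genes 6 were marked in cap mesenchyme only, 4 in both, 12 in neither and none in ureteric epithelium only, against 4.75% and 0.812% of all genes marked in 1 list only. With so low a share, none of 22 in ureteric epithelium alone says little. The 6 were Slc34a1, the organic anion transporters Slc22a6 and Slc22a8, the endocytic receptor Cubn, the water channel Aqp1 and the amino acid transporter subunit Slc3a1, with peaks of 1456 to 2502 bp, of which that of Slc22a8 met a ureteric peak beyond the promoter window. None of the 6 carried H3K27me3 in either kidney population, and 1 of the 6 had H3K4me3 in stem cells. Of all 980 protein-coding genes marked in cap mesenchyme only, 55.3% carried H3K27me3 in neither population and 80.9% had H3K4me3 in stem cells. Absence of H3K27me3 was common elsewhere too, at 86.6% of protein-coding genes with H3K4me3 in both lists and 89.9% of those with it in neither. Their RNA was at most 0.427 FPKM in the E11.5 tissue. Hnf4a, the nuclear receptor of proximal tubule, was marked in cap mesenchyme only as well, over 2050 bp, with RNA listed at 0 in both tissues. Its peak met a ureteric peak beyond the promoter window, and its call turned to both lists with a window of 2.5 kb or over the gene body, and to neither with the outermost start or in the upper 50% of both lists. All 6 tubule calls held at equal list length, and none in the upper 50% of both lists by score. Of 15 podocyte genes 9 were marked in both lists, 3 in cap mesenchyme only and 3 in neither. Over all protein-coding genes the shares were 62.3%, 4.57% and 32.5%. Unlike the tubule genes, the 3 in cap mesenchyme only carried H3K27me3, 1 in both kidney populations and 2 in ureteric epithelium only. All 3 had both marks in stem cells. Those 3 included Ptpro, a receptor phosphatase (1541 bp), and Lmx1b, a LIM homeobox factor (5173 bp), while Nphs1, the slit diaphragm protein nephrin, was marked in neither list. These are markers of cell types that form from cap mesenchyme, and whether differentiating cells in the E18.5 sort contributed to these peaks was not tested.

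The named ureteric-only promoters included 2 sets. The first held genes of ureteric and other epithelia. Calb1 was at 1685 FPKM in ureteric bud and 0.478 in mesenchyme, and Cldn8, a claudin of the collecting duct, at 51.7 and 0.0314 FPKM with 4308 bp of the mark. Tfap2b had the widest private ureteric peak at a promoter, with 9282 bp (chromosome 1, 19208568 to 19217849), and RNA at 25.1 and 0.393 FPKM. Ros1, an orphan receptor tyrosine kinase, was at 19.9 and 0.00764 FPKM, the epithelial GTPase Rab25 at 7.0 and 0.0886 FPKM, and Aldh1a1, a retinaldehyde dehydrogenase, at 58.2 FPKM in ureteric bud and listed at 0 in mesenchyme. The Aldh1a1 peak was narrow (493 bp) and low in score (57.6). The calcium channel Trpv6, the keratin Krt23 and the ETS factor Ehf belonged to the same set.

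The second set, of endothelial genes, differed from the first in its RNA. Of 20 endothelial genes 8 were marked in ureteric epithelium only, 12 in both and none in cap mesenchyme only, against 0.812% marked in ureteric epithelium only over all genes. The 8 were the adhesion molecules Pecam1 (6343 bp) and Cdh5 (4005 bp), the angiopoietin receptor Tek (5176 bp) and its relative Tie1 (2847 bp), Emcn (3927 bp), the TGF-beta co-receptor Eng (2164 bp), the guidance receptor Robo4 (2919 bp) and the diaphragm protein Plvap (2749 bp). Of their peaks that of Pecam1 met a cap mesenchyme peak beyond the promoter window. The 12 marked in both were all wider in ureteric epithelium, with a median ratio of 0.431, and 9 of them at least 2-fold. Kdr, the VEGF receptor, had 5450 bp in ureteric epithelium and 1930 bp in cap mesenchyme, Cd34 4547 and 1263 bp, and Egfl7 7761 and 1616 bp. Over the whole list the mark summed to 89.3 kb in ureteric epithelium and 24.4 kb in cap mesenchyme. RNA went the other way, since all 20 genes were higher in dissected mesenchyme than in ureteric bud, with and without rescaling of the tissues to the same median. Plvap was at 10.5 FPKM in mesenchyme and 1.003 in ureteric bud, Cdh5 at 7.97 and 0.76 FPKM, and Emcn at 5.08 and 0.397 FPKM. The blood regulators Tal1 (5440 and 1553 bp) and Lyl1 (3536 and 805 bp), both also active in endothelium, were wider in ureteric epithelium too, while the defining blood genes Ptprc, Spi1 and Gata1 had no peak at their starts. Of the 4 blood and macrophage genes marked in both lists, the other 2 were wider in cap mesenchyme. All 8 endothelial calls held in the upper 50% of both lists by score and at each of the other promoter windows, and 5 of the 8 when any peak in the gene body counted. Equal list length shortened only the cap mesenchyme list, so it could not undo a ureteric-only call. The upper 50% tested the score of the ureteric peaks but could not bring in a cap mesenchyme peak. The part of endothelial cells in the ureteric sort was not tested.

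**Figure D4:**
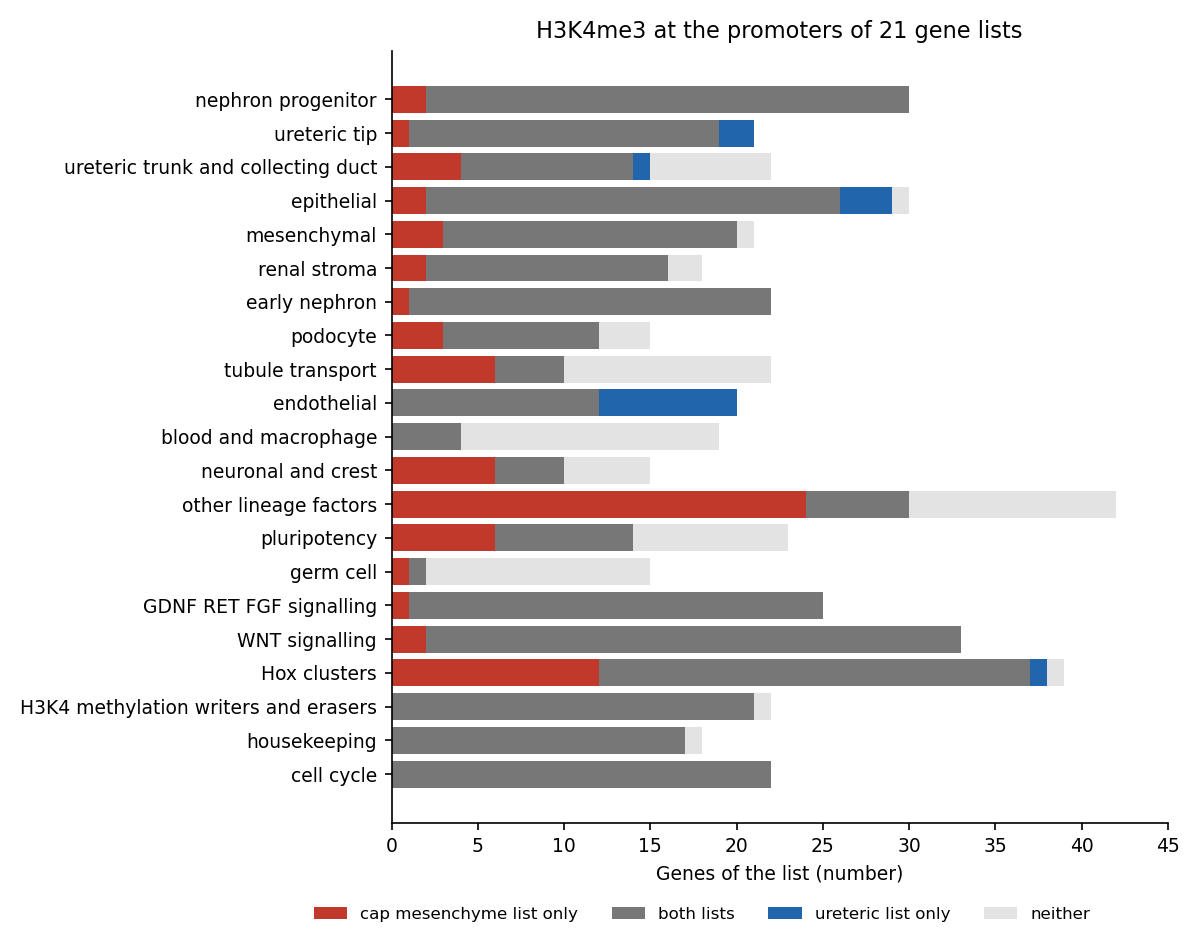
Number of genes in each of 21 gene lists whose promoter carried H3K4me3 in the cap mesenchyme list only (red), both lists (grey), the ureteric list only (blue) or neither (light grey). The red segment is longest for other lineage factors (24 of 42) and the blue one for endothelial genes (8 of 20), while cell cycle genes are marked in both throughout.

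RNA of genes marked in 1 population only gave a mixed picture. Few of the cap mesenchyme-only genes were expressed, 168 (10.6%) at 1 FPKM or more in either tissue, against 64 (23.6%) of the ureteric-only genes and 10958 (69.3%) of those marked in both. The median RNA difference was 0.13 for the cap mesenchyme-only genes and -1.23 for the ureteric-only genes, that is 0.59 above and 0.77 below the median of all genes. Of the 168, 20 (11.9%) were 4-fold higher in mesenchyme and 13 (7.74%) 4-fold higher in ureteric bud, against 1.97% and 4.27% of all genes. Of the 64, 19 (29.7%) were 4-fold higher in ureteric bud and 4 (6.25%) in mesenchyme.

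RNA and the mark leaned to the same side at Des, an intermediate filament of muscle and mesenchyme (31.1 FPKM in mesenchyme, 0.142 in ureteric bud), Meox1 (18.6 and 0.102 FPKM; its peak met a ureteric one elsewhere), Cd248, a mesenchymal surface protein (10.4 and 0.0773 FPKM), Lmx1b (8.99 and 0.073 FPKM) and Tbx18, a T-box factor of ureteric mesenchyme (8.50 and 0.0588 FPKM). Pdgfra, a growth factor receptor of mesenchyme, had the largest RNA difference of the cap mesenchyme-only genes (75.1 and 0.456 FPKM), but its call turned to ureteric epithelium only when the outermost start of each gene was used, to both lists with a window of 2.5 kb, and to neither with 250 bp. Disagreement was as marked on the other side. Krt7, an epithelial keratin (24.9 FPKM in ureteric bud), and Tmem54, a membrane protein (10.1 FPKM), were listed at 0 in mesenchyme and yet had H3K4me3 in cap mesenchyme only, over 1312 and 919 bp. The tight junction protein Tjp3 (5.62 FPKM in ureteric bud and 0.129 in mesenchyme) was marked in cap mesenchyme only too, by a 2593 bp peak that met a ureteric peak beyond the promoter window. The ureteric-only genes with RNA higher in mesenchyme were led by Plvap, Sncg, Cdh5 and Emcn, of which Sncg encodes a synuclein, and the other 6 of the 10 named by rule were Ecscr, Pecam1, Aplnr, Gimap6, Tie1 and Tek.

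**Figure D5:**
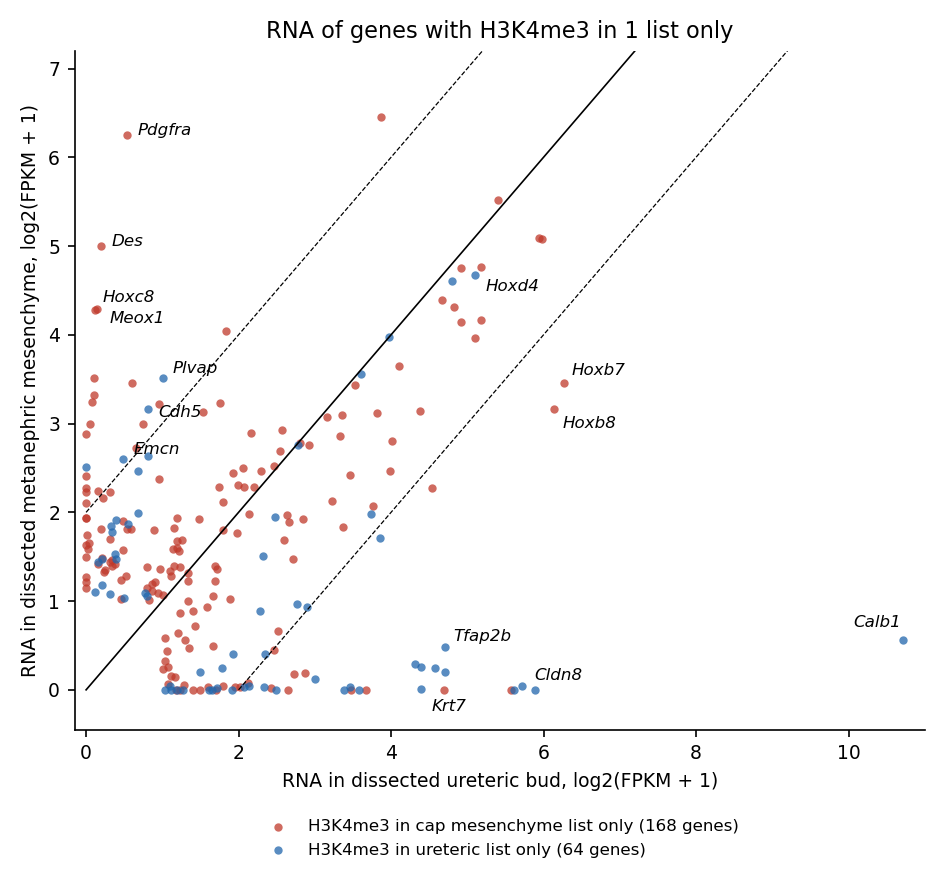
RNA as log2(FPKM + 1) in dissected ureteric bud (x axis) and metanephric mesenchyme (y axis) for genes at 1 FPKM or more whose promoter carried H3K4me3 in the cap mesenchyme list only (red, 168 genes) or the ureteric list only (blue, 64 genes). The solid line marks equality and the dashed lines a 4-fold difference; 20 red genes lie 4-fold to the mesenchyme side and 13 to the ureteric side, and the endothelial genes Plvap, Cdh5 and Emcn are blue points above the solid line.

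Strong private peaks were rare. At or above the median score of their list, 631 cap mesenchyme peaks (1.92% of the list) and 105 ureteric peaks (0.44%) were private, with median widths of 1570 and 2309 bp. Of the 631, 288 lay at a promoter, 77.0% were marked in stem cells, and H3K27me3 overlapped 37.6% in ureteric cells and 32.0% in cap mesenchyme itself. Of the 105, 61 lay at a promoter, 34.3% were marked in stem cells, and H3K27me3 overlapped 14.3% in cap mesenchyme and 16.2% in ureteric cells themselves. The strongest private cap mesenchyme peaks at protein-coding promoters outside HoxB were those of Ajap1, an adherens junction protein (4732 bp), Ntsr1, the neurotensin receptor (5166 bp), Lmx1b and Rasef, a small GTPase (3684 bp), all at a score of 3100. Among protein-coding genes marked in ureteric epithelium only, the highest-scoring private peaks after that of Tfap2b were those of Cd93, an endothelial lectin (5494 bp, score 2289), the start shared by Aida and Brox (3194 bp, score 2200), Arhgef38 (3622 bp, score 1879) and Tek (score 1867). Erg, an ETS factor of endothelium, had a private ureteric peak of 5226 bp with a score of 2367, but counted as marked in both through another start. The RNA of Aida and Brox was close in the 2 tissues. Aida was at 5.75 FPKM in mesenchyme and 5.85 in ureteric bud, and Brox at 2.84 and 4.56 FPKM, yet the nearest cap mesenchyme peak lay 45864 bp away. Rnf14, a ubiquitin ligase with 10.8 and 11.2 FPKM, shared its 6754 bp ureteric peak with Pcdh12, a protocadherin of endothelium. Such shared starts mean that a peak at 1 gene cannot be assigned to it rather than to its neighbour.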

How the data were processed

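Peak positions came from 6 peak lists deposited by the authors, each with a score per peak whose definition is not given in the sources used here. RNA came from a deposited table of FPKM values, which the authors computed per transcript. The submitters' processing notes name Bowtie2, MACS, TopHat, Cufflinks, Cuffdiff and mm10, with no versions. Whether each list pools libraries is not given, and the depth of all samples is unknown.

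Each group was 1 sample, so no test was run. Percentages are over peaks or genes, which are not replicates. Peaks were compared with Python 3.11.15, numpy 2.4.6 and pandas 2.3.3, and the overlaps were checked on simulated data and against bedtools 2.31.1. Starts of 26793 genes came from RefSeq promoter sequences (GRCm38.p6, the mm10 assembly) and of 6585 from gene ends, and 946 genes without a start were left out. FPKM were summed per gene over transcripts paired by accession or locus, 9532 of 131951 transcripts staying unpaired, and compared as log2(FPKM + 1), which understates the change of low genes.

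Named genes were the members of 21 gene lists, up to 15 genes per list of peaks with the strongest private promoter peak, the widest private promoter peak or the largest difference in width, and private genes with the largest RNA difference (10 where RNA went the other way). The comparison, the gene lists and the shown promoters were chosen with earlier results of these data known. Alternatives covered the overlap rule, list length, score, promoter window, gene start and pseudocount.

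A few genes are not reported here.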

Additional observations from a re-analysis of the deposited data

Results flagged for a closer look

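Peaks outside chromosomes 1 to 19 and X entered no comparison. The cap mesenchyme list held 72 such peaks, 37 of them on chromosome Y, and the ureteric list held 71, 35 of them on chromosome Y and 7 on the mitochondrial genome.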

How the results depend on the processing

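Of the values that answer a comparison, 35 stayed within their margin (1.5 times for a count, the counting interval for a percentage) and 32 moved. For median widths and CpG ratios the margin was tighter than 1.5 times. The shared cap mesenchyme median of 1930 bp counted as moved at 2009 bp (equal number). The private cap mesenchyme median of 809 bp counted as within its margin at 816 bp (joined peaks). Shared peaks were 61.7% of the cap mesenchyme list and 87.3% of the ureteric list. They were 70.5% and 97.9% in the upper 50% of each list by score, 79.5% and 82.3% at equal number, 57.9% and 79.7% with 50% reciprocal overlap, 59.7% and 86.0% with 50% of a peak covered, 62.8% and 88.6% after joining peaks within 1 kb, and 65.2% and 89.5% counting peaks up to 2 kb away. Genes marked in cap mesenchyme only went from 1584 to 2983 in the upper 50% and 1054 at equal number, and ureteric-only genes from 271 to 130 in the upper 50% and 147 with a score of at least 100. At equal number the median widths were 2009 bp (shared) and 1068 bp (private) for cap mesenchyme and 1787 and 603 bp for ureteric epithelium. After joining, shared medians were 2008 and 1829 bp. Also at equal number, private cap mesenchyme peaks overlapped stem cell H3K4me3 at 55.7%, stem cell H3K27me3 at 14.0%, cap mesenchyme H3K27me3 at 13.7% and ureteric H3K27me3 at 15.8%, private ureteric peaks overlapped stem cell H3K4me3 at 36.5%, and the CpG ratio of cap mesenchyme-only promoters was 0.442. With a pseudocount of 0.1, cap mesenchyme-only genes at least 4-fold apart numbered 34 (higher in mesenchyme) and 20 (higher in ureteric bud), and ureteric-only genes 11 and 30. Of the named genes Pdgfra changed sides, coded 1 for cap mesenchyme only and -1 for ureteric only, to -1 with the outermost start, and over all genes 1 cap mesenchyme-only and 1 ureteric-only gene did so there. The outermost start, the score of at least 100 and the CpG ratio at equal number were chosen after seeing the data. The cause of these shifts was not tested, beyond the shorter lists themselves. No paired analysis was possible because each group was 1 sample. Depth limits all private calls, since a low peak missing from a list may lie below its score minimum.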
